A study of Mus musculus with 4 samples.

Results

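The change common to loss of Pld6 and loss of Dnmt3l was measured in L/Z spermatocytes (leptotene to zygotene), which are germ cells at the start of meiosis. All 4 libraries of the series were used. The mutant group was made of a Dnmt3L_KO and a Pld6 KO library, and the control group of a Dnmt3L_Het (heterozygote) and a Pld6 WT (wild-type) library. Mutants were compared with the control from the same line, with line (Dnmt3L or Pld6) as a block in the model. All animals were F1 hybrids of the strains C57BL6/J and MSM/Ms, aged 3 to 4 weeks, and the cells were sorted by FACS before strand-specific polyA(+) sequencing. The mutations remove different genes, so the 2 mutants are replicates only of a loss in the silencing of retrotransposons, and each genotype had 1 library. The controls also differ, since 1 of them carries a mutant Dnmt3l allele. Fragments counted in genes ranged from 30439943 (Pld6 KO) to 63875934 (Dnmt3L_Het) per library.

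Germ cells of the fetal testis silence retrotransposons by small RNAs and by DNA methylation. The study reports that the small RNAs guide new methylation at only some retrotransposons. PLD6 is a mitochondrial nuclease that takes part in making piRNAs, the small RNAs that guide PIWI proteins to retrotransposon sequences. DNMT3L has no methyltransferase activity of its own and acts as a cofactor of the enzymes that set new DNA methylation in the male germ line. Male germ cells without either gene arrest early in meiosis. Spermatocytes that pass this point enter the pachytene stage and switch on a large programme of genes for late meiosis, the acrosome, the flagellum and the compact chromatin of sperm.

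For both targeted genes the knockout library held the lowest level. Pld6 was at 17.2 and 19.5 FPKM (fragments per kilobase of transcript, scaled to library depth) in the controls, Dnmt3L line first, at 8.55 in the Dnmt3L KO and at 0.334 in the Pld6 KO. Dnmt3l was at 1.27 and 0.980 FPKM in the controls, at 0 in the Dnmt3L KO and at 0.432 in the Pld6 KO. Both mutants were thus below both controls for both genes. Neither gene passed the test of the common change (edgeR quasi-likelihood, adjusted p = 0.144 for Pld6 and 0.252 for Dnmt3l), in which 1 line carries the deletion and the other does not.

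Far more genes were lower than higher in both mutants. Of 17686 genes tested, 1269 were lower (7.18%) and 204 were higher (1.15%) in the mutants at an adjusted p under 0.05 (edgeR's quasi-likelihood test with line as a block, Benjamini-Hochberg adjustment over all genes tested). The median log2 change of the called genes was -4.93 for those lower and 1.43 for those higher, against 0.06 over all genes tested. The smallest size of a called change was 0.97 on the log2 scale among the lower and 0.95 among the higher genes. At an unadjusted p under 0.05, 2318 genes were lower and 1592 higher. The counts of the lists below are to be read beside those over all genes. With line left out of the same edgeR model 0 genes were higher and 17 lower (178 and 1690 at an unadjusted p under 0.05), so the calls rest on taking each mutant against its own control, with 1 residual degree of freedom. Among the 17 were Ldhc and Adam3 of pachytene spermatocytes and Tdrd6 of the chromatoid body (adjusted p = 0.0469, 0.0385 and 0.0385 without line). The share of lower genes among the calls was 86.2%, was 71.5% by DESeq2, and fell to 26.2% when libraries were scaled to equal levels of 34 early meiotic genes, which moved the median of all genes from 0.06 to 0.69.

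The lines share no library, so the change within each line was also described on its own, as log2 of the mutant over the control after adding 0.5 CPM (counts scaled to library depth). In both lines 1513 genes were more than 2-fold lower (8.55% of genes tested), and 361 were more than 2-fold higher (2.04%). The genes 2-fold lower in each line were 63.9% of the 2368 lower in the Dnmt3L line and 76.3% of the 1984 lower in the Pld6 line. Those 2-fold higher in each line were a smaller share, 25.6% of the 1412 higher in the Dnmt3L line and 19.5% of the 1853 higher in the Pld6 line. Changes beyond 2-fold in opposite directions were seen for 114 genes, of which 33 were higher in the Dnmt3L line and 81 higher in the Pld6 line. The plot of the change in one line against that in the other shows a long arm of called genes toward lower levels in both and a short cloud of called genes toward higher levels.

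**Figure D1:**
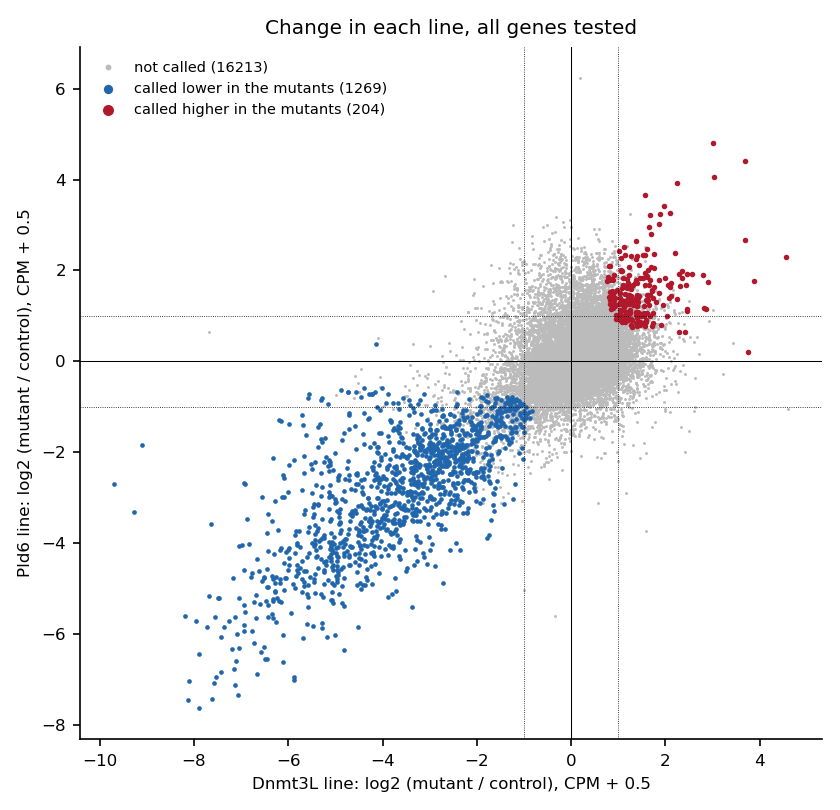
Each point is 1 of the 17686 genes tested, placed by its log2 change (mutant over control, CPM + 0.5) in the Dnmt3L line on the x axis and in the Pld6 line on the y axis, with dotted lines at 2-fold. The 1269 genes called lower (blue) reach below -7 in both lines, while the 204 called higher (red) lie mostly between 1 and 3.

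The median of the called lower genes was near 0 FPKM in both mutants, although some stayed well expressed. Their median level was 15.1 and 7.73 FPKM in the controls (Dnmt3L line first) and 0.301 and 0.220 in the mutants. Both mutants were below both controls at 1259 of the 1269 genes (21.8% of all genes tested were placed in this way). In 279 of them no fragment was counted in either mutant, and in 409 both mutants were under 0.1 FPKM. Only for Cstl1 did the Pld6 line go the other way, with 0.181 FPKM in the Pld6 WT and 0.619 in the Pld6 KO library. The lower genes took 5.46% and 3.35% of the fragments of the controls and 0.726% and 0.865% of those of the mutants. Most of them, 1141, code for proteins, 82 are lncRNAs and 29 are pseudogenes. In these bulk samples, fewer cells of a stage and less RNA per cell cannot be told apart.

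Genes of the first steps of meiosis were called lower at about the share of all genes tested (7.18%). Of 14 genes of the chromosome axis and synaptonemal complex, edgeR called Syce3, of the central element, as lower (7.14%), and the median log2 change was -0.78. Lower at an unadjusted p under 0.05 were 10 of the 14, against 2318 of the 17686 genes tested, and DESeq2 called 6. With libraries scaled on the early meiotic genes Syce3 no longer passed, but it is itself among the genes that set this scaling. Syce3 was at 208 and 230 FPKM in the controls and 53 and 92.2 in the mutants (log2 change -1.68, adjusted p = 0.0135). Sycp3, which builds the axis, was at 559 and 782 FPKM in the controls (Dnmt3L line first, as in the pairs that follow) and at 285 and 431 in the mutants, a log2 change of -0.95 that did not pass (adjusted p = 0.0824). Sycp1 of the transverse filament was at 167 and 311 FPKM in the controls and 119 and 171 in the mutants, with the Pld6 KO library just above the Dnmt3L heterozygote (log2 change -0.71, adjusted p = 0.22).

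Of 20 genes of meiotic break formation and strand exchange, 1 was lower (5.0%) and none higher by edgeR (7 lower at an unadjusted p under 0.05, and 2 by DESeq2), with a median log2 change of -0.61, which became 0.03, with no call, when libraries were scaled on these genes and those of the axis. Spo11, which makes the meiotic breaks, was the one called by edgeR. It was at 21.8 and 50.9 FPKM in the controls and 8.64 and 21.6 in the mutants (log2 change -1.31, adjusted p = 0.0254). Dmc1, the meiotic recombinase, was at 59.8 and 162 FPKM in the controls and 46.5 and 99.6 in the mutants, and did not pass (adjusted p = 0.223). The Pld6 WT library was above the Dnmt3L heterozygote for both genes. Both mutants thus held defining transcripts of early spermatocytes, from Spo11 at the lowest to Sycp3 at the highest of those given.

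Of 19 genes of spermatogonia and meiotic entry, 1 was higher and none lower by edgeR, with a median log2 change of 0.02. DESeq2 called 3 higher, and 5 were higher with libraries scaled on the early meiotic genes. Gfra1, a receptor subunit of spermatogonial stem cells, rose from 4.87 and 4.89 FPKM to 10.8 and 12.8 (log2 change 1.25, adjusted p = 0.0329), so the groups did not overlap, though by limma and with total fragments as library size it did not pass. Ret, its signalling partner, was at 5.65 and 7.50 FPKM in the controls and 9.35 and 18.3 in the mutants (adjusted p = 0.0601). Stra8, needed for entry into meiosis, was at 164 and 187 FPKM in the controls and 108 and 162 in the mutants (adjusted p = 0.342). None of the 15 cyclins and division kinases was called by edgeR or by DESeq2 (2 lower at an unadjusted p under 0.05), and the median was -0.06 (0.58 with libraries scaled on the early meiotic genes).

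Genes first expressed in pachytene spermatocytes fell. Of 16 such genes 15 were lower, with a median log2 change of -4.42, and the medians within the lines were alike at -3.94 (Dnmt3L) and -3.79 (Pld6). Ldhc, the lactate dehydrogenase of germ cells (chromosome 7, 46861263 to 46878147, mm10), was at 623 and 304 FPKM in the controls and 2.80 and 1.91 in the mutants (log2 change -7.62, adjusted p = 9.59e-05), with changes of -7.58 and -7.07 within the lines. Adam3, a surface protein of sperm, was at 66.7 and 42.8 FPKM in the controls and 0.160 and 0.164 in the mutants. Pgk2, a phosphoglycerate kinase of germ cells (chromosome 17, 40207018 to 40208609), was at 87.7 and 40.2 FPKM in the controls and 0.258 and 0.0227 in the mutants. The gap between groups was far wider than that between the controls for each of these genes. Smaller falls were seen for Hspa2, a meiotic chaperone, from 151 and 114 to 43.2 and 52.5 FPKM, and for Psma8, a proteasome subunit of spermatocytes, from 30.1 and 30.9 to 13.3 and 13.3 FPKM (adjusted p = 0.0147 and 0.0368). The one listed gene that was not called was the linker histone gene Hist1h1t, at 1.82 and 1.71 FPKM in the controls and 0.594 and 1.36 in the mutants. It held few fragments, 63 and 37 in the controls and 15 and 23 in the mutants, with both mutants below both controls.

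**Figure D2:**
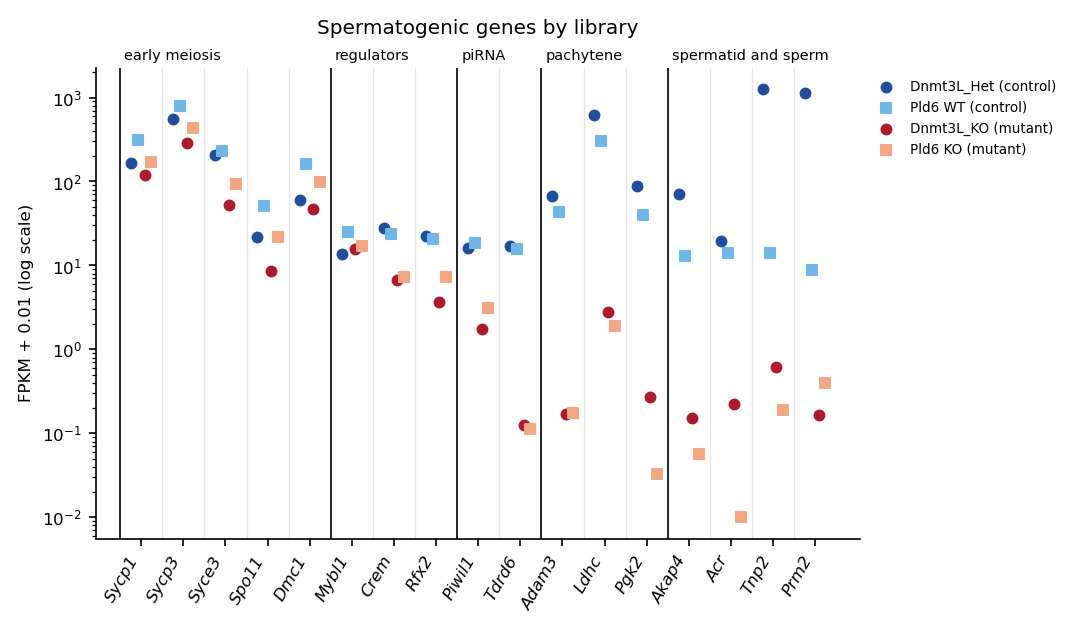
Levels of 17 spermatogenic genes in the 4 libraries, as FPKM + 0.01 on a log axis, with controls in blue, mutants in red, circles for the Dnmt3L line and squares for the Pld6 line. Early meiotic genes stay within several-fold of each other, while for the pachytene, spermatid and sperm genes shown both mutants lie more than 10-fold below both controls.

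Regulators of the later programme fell in part. Of 10 listed, 6 were lower (Rfx2, Crem, Tbpl1, Sox30, Tcfl5 and Fhl5), and the median log2 change was -1.33. With libraries scaled on the early meiotic genes 1 of them stayed lower, and Rfx2 and Fhl5 no longer passed. Rfx2, a transcription factor for genes of spermatids and cilia, went from 22.4 and 20.5 FPKM to 3.67 and 7.23 (log2 change -2.09, adjusted p = 0.00893). Crem, a transcription factor of spermatids, went from 28.0 and 23.7 to 6.71 and 7.21 FPKM (log2 change -1.96, adjusted p = 0.00687). For both, each mutant was below both controls. Mybl1, the factor that drives pachytene transcription, was at 13.7 and 24.7 FPKM in the controls and 15.7 and 16.9 in the mutants (log2 change -0.22, adjusted p = 0.705), so the groups overlapped. Taf7l and Taf4b, subunits of the general transcription machinery in germ cells, also overlapped.

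All 7 genes of spermatid chromatin packaging were lower, with a median log2 change of -10.68 in the fit (-10.07 with genes absent from both mutants set at their bound). This list differed most between the controls. Prm2, a protamine (chromosome 16, 10791377 to 10792105), was at 1135 FPKM in the heterozygote and 8.93 in the wild type, and at 0.154 and 0.385 in the mutants. Tnp2, a transition protein that acts before protamines (chromosome 16, 10787935 to 10788655), was at 1255 and 14.2 FPKM in the controls and 0.607 and 0.181 in the mutants. Prm3 had no fragment in either mutant, which puts it at least 18.7-fold lower in each line when the floor is taken as 3 fragments per library. The median change was accordingly -7.64 in the Dnmt3L line and -2.99 in the Pld6 line, and the summed level of the 7 genes was 7016 and 109 FPKM in the controls. These transcripts are not made by L/Z cells in normal spermatogenesis, and their part in the result was not tested.

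The genes of the acrosome and of sperm structure fell in both lines without such a gap between controls. Of 11 acrosome and fertilization genes 10 were lower. Acr, the protease acrosin, was at 19.5 and 14.2 FPKM in the controls, and at 0.215 and 0 in the mutants (adjusted p = 0.000823). Spaca3 had no fragment in either mutant and was at 24.9 and 13.9 FPKM in the controls, at least 94.1-fold lower. Spaca1 was the exception, at 21.7 and 21.7 FPKM in the controls and 15.3 and 3.15 in the mutants (adjusted p = 0.186). The medians were -3.77 in the Dnmt3L and -3.69 in the Pld6 line.

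All 21 genes of sperm kinases, channels and the flagellum were lower, with a median of -5.25. Akap4, the main protein of the fibrous sheath (chromosome X, 7067515 to 7078609), had the smallest adjusted p of all genes, 5.13e-05, with 70.0 and 13 FPKM in the controls and 0.143 and 0.0476 in the mutants. Catsper1, a pore subunit of the sperm calcium channel, was at 4.66 and 4.61 FPKM in the controls and had no fragment in either mutant, at least 94.7-fold lower. Gapdhs, the glycolytic enzyme of the flagellum, went from 99.2 and 16.1 to 1.43 and 0.891 FPKM (adjusted p = 0.000402). The controls differed several-fold for Akap4 and Gapdhs, yet both mutants lay under the lower of them. By DESeq2 the calls of Prm3, Spaca3 and Catsper1, all at 0 in both mutants, did not pass.

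Testis transcripts of unknown function moved the same way. Of 250 tested genes whose RIKEN name has the prefix of adult testis cDNAs, as 1700074P13Rik, 133 were lower and none higher by edgeR (130 and 1 by DESeq2, 117 and 3 with libraries scaled on the early meiotic genes). The naming rule ranks falls by the fitted fold, which for genes with no fragment in either mutant depends on the prior count, and all 10 of its genes were of this kind. They were 1700074P13Rik (at least 276-fold lower), 4930544G11Rik (420-fold), Pom121l2 (414-fold), Slco6c1 (260-fold), Allc (186-fold), 4930571K23Rik (125-fold), Iqcf3 (85.2-fold), Actrt2 (83.0-fold), Spert (81.9-fold) and Cabs1 (29.3-fold), each the smaller of the bounds of the lines. On chromosome Y, 12 of 32 tested genes were lower (37.5%) and none higher, against 69 lower and 14 higher of 800 on chromosome X. Among the former were Sly, at 6.61 and 4.98 FPKM in the controls and 0.531 and 0.0882 in the mutants, and members of the Ssty family. These are multicopy genes of spermatids whose reads are hard to assign to 1 copy. The single-copy Y gene Eif2s3y, expressed in early germ cells, was at 69.8 and 110 FPKM in the controls and 75.4 and 71.4 in the mutants (adjusted p = 0.596).

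**Figure D3:**
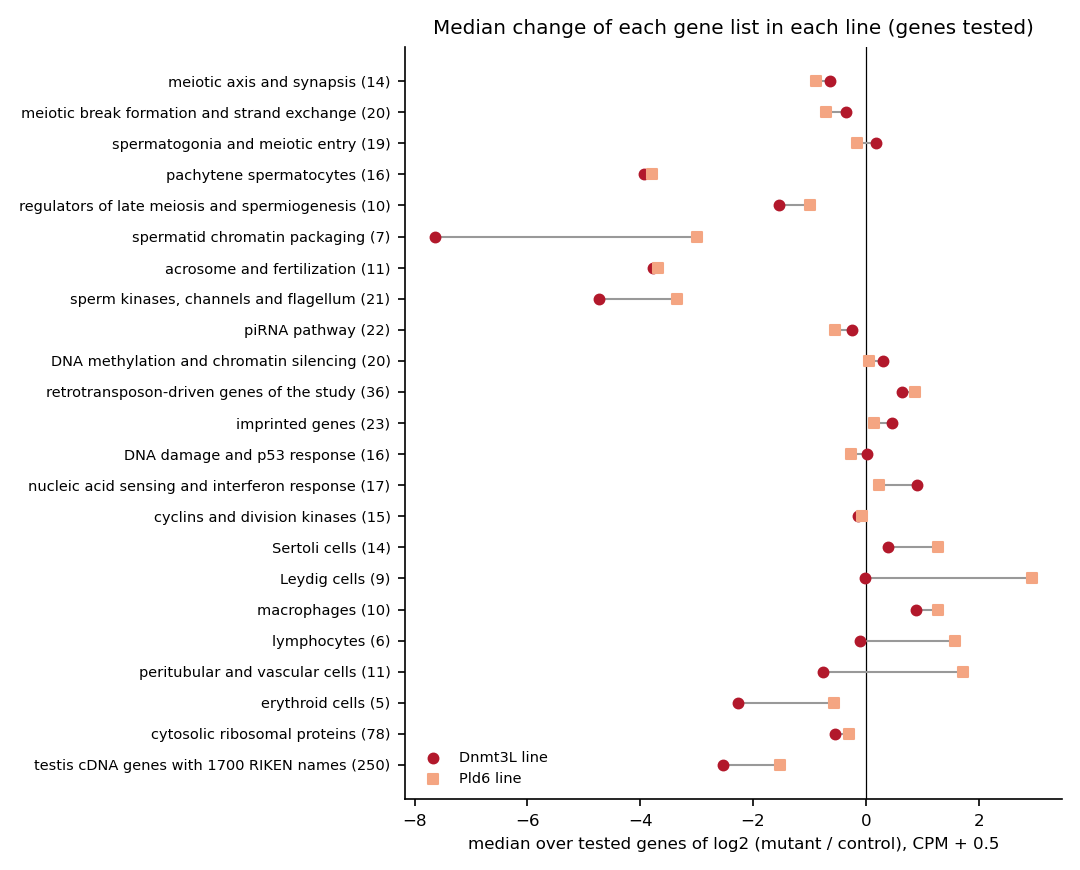
Median log2 change (mutant over control, CPM + 0.5) of the tested genes of each list in the Dnmt3L line (circles) and in the Pld6 line (squares), with the number of genes tested in brackets. Pachytene, acrosome and flagellum lists lie between -3 and -5 in both lines, early meiotic lists lie between -1 and 0, and the lines part most at spermatid packaging, Leydig and peritubular genes.

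Most genes of the piRNA pathway did not pass the test. Of 22 tested, 4 were lower (18.2%, against 7.18% of all genes tested) and none higher. The median log2 change was -0.33 (0.31 with libraries scaled on the early meiotic genes). Tdrd6, a tudor protein of the chromatoid body of spermatids (chromosome 17, 43615334 to 43631846), fell from 17.0 and 15.6 FPKM to 0.117 and 0.101 (log2 change -7.24, adjusted p = 0.000168). Piwil1, the PIWI protein of pachytene piRNAs (chromosome 5, 128736071 to 128755474), fell from 16 and 18.7 to 1.73 and 3.13 FPKM (log2 change -2.92, adjusted p = 0.00157). The changes in the lines differed by less than 1 on the log2 scale for both genes. Mael fell from 399 and 369 to 133 and 182 FPKM (adjusted p = 0.0259), and Gtsf1 from 180 and 167 to 50.4 and 55.3 (adjusted p = 0.00584). Piwil2 acts in the fetal pathway and, as the study cites, was reported to act in spermatocytes too. Its levels were 45.1 and 84.9 FPKM in the controls and 52.2 and 74.5 in the mutants. Mov10l1, the helicase that starts piRNA processing, was at 54.6 and 104 FPKM in the controls against 52.3 and 113 in the mutants. Both overlapped between the groups.

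None of 20 genes of DNA methylation and chromatin silencing was called by edgeR, with a median log2 change of 0.20 (4 were higher and 0 lower at an unadjusted p under 0.05, 2 were higher by DESeq2, and 8 were higher with libraries scaled on the early meiotic genes). Tet3, an enzyme that oxidizes methylated cytosine, came closest to the threshold, at 4.02 and 9.73 FPKM in the controls and 9.16 and 17.5 in the mutants (log2 change 0.98, adjusted p = 0.0507). Dnmt3a, the partner of DNMT3L, was at 10.1 and 13.3 FPKM in the controls and 17.6 and 14.2 in the mutants (adjusted p = 0.438).

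The promoters of the lower genes were compared with those of all genes for the letters bound by 3 regulators of the later programme. The 250 bases before each RefSeq start site (assembly GRCm38.p6, the coordinates of mm10) were searched on both strands, in 13807 tested genes, of which 989 were called lower and 149 higher. The RFX half-site GTTGCCAT was found in 4.65% of the lower genes, 0.671% of the higher genes and 1.3% of all genes. The MYB letters GGCAGTT were found in 7.28% of the lower, 2.01% of the higher and 3.81% of all genes. The full CRE TGACGTCA, bound by CREM, was found in 2.53%, 2.01% and 2.69%. The MYB letters end and the RFX half-site begins with GTT, so matches of both can overlap. The promoters of the lower genes also held fewer CpG pairs, a median of 6 in 250 bases against 13 over all genes and 10 in the higher genes. These are counts of letters and not of bound sites, and they were not tested.

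Of 84 called genes of the lists, 65 had a promoter sequence and 8 of these held at least 1 of the motifs. Not shown are Catsper2 of the flagellum list, the regulator Tcfl5 and the erythroid gene Hba-a2, each with the MYB letters. The 100 bases around the match are shown for the other 5, from the pachytene, flagellum, acrosome and piRNA lists. Those of Piwil1, Tekt4 and Tekt1 lie inside the annotated gene, before a start site other than the outermost. Whether these start sites are used in the cells was not tested. Most members of the piRNA list, to which Piwil1 belongs, were not called. Each sequence runs 5′ to 3′ on the strand of the gene, with the motif in capitals.
Pgk2 (MYB, minus strand, chr17:40208703-40208802): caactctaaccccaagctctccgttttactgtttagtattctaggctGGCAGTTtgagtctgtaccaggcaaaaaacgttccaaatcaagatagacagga
Piwil1 (MYB, plus strand, chr5:128736124-128736223): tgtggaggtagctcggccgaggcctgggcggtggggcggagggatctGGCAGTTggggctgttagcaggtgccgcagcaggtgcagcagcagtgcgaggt
Tekt4 (MYB, plus strand, chr17:25471490-25471589): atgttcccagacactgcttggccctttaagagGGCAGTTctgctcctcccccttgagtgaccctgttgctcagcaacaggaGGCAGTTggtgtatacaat
Tekt1 (RFX half-site, minus strand, chr11:72361883-72361982): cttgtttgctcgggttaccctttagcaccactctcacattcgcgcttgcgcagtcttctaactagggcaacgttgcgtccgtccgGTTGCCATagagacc
Izumo1 (CRE, plus strand, chr7:45621669-45621768): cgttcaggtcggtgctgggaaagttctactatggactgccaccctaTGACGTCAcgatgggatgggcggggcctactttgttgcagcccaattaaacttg
Tekt1 and Tekt4 encode tektins of the flagellum. Tekt1 fell by 5.25 on the log2 scale (adjusted p = 0.000595). Tekt4 fell by 6.44 on the log2 scale (adjusted p = 0.000555). Izumo1, the sperm protein that binds the egg, was at 4.62 and 5.57 FPKM in the controls and 0.359 and 1.32 in the mutants (adjusted p = 0.0349).

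The called higher genes were fewer, and their levels differed between the lines. All 204 rose in both lines, by a median of 1.39 (Dnmt3L) and 1.40 (Pld6) on the log2 scale, and 195 of them code for proteins. Both mutants were above both controls for 98 of them (13.8% of all genes tested were placed in this way), and for 106 the groups overlapped. In 100 of these 106 the Dnmt3L heterozygote lay above the Pld6 mutant. The Dnmt3L heterozygote exceeded the Pld6 WT library by a median log2 of 2.59 at the 106 genes, against 0.04 over all genes tested. The call of a rise at these genes therefore rests on the comparison within lines. Without the Dnmt3L KO library, in a fit with no block for line, 68 of the 204 changed sign.

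The rises from near silence included genes best known from other organs. Gc, the vitamin D binding protein of plasma (chromosome 5, 89417511 to 89457898), had no fragment in either control and was at 2.23 and 4.96 FPKM in the mutants, at least 77.6-fold higher (adjusted p = 0.00931). Reg2, a pancreatic regenerating protein (chromosome 6, 78405155 to 78408099), had no fragment in either control and was at 3.83 and 14.8 FPKM in the mutants, at least 40.6-fold higher (adjusted p = 0.0144). Pkhd1, the gene of polycystic kidney disease (chromosome 1, 20057779 to 20618082), was at 0.00484 and 0.00579 FPKM in the controls, 4 and 3 fragments, and at 0.530 and 0.946 in the mutants, 320 and 382 fragments (adjusted p = 0.000927). Ky, a muscle protein gene named after its values were seen, was at 0.0264 and 0.0515 FPKM in the controls and 0.884 and 4.11 in the mutants (adjusted p = 0.00203). In each of these the Pld6 KO library was above the Dnmt3L KO library, and both were far above either control. In all, 13 called genes were under 0.1 FPKM in both controls. By limma on log2(FPKM + 1), a scale that compresses low levels, Pkhd1 and Ky did not pass.

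Gc, Reg2 and Pkhd1 belong to a list of genes chosen on other libraries, of mutants of the strain C57BL/6J. The list was taken from the study and joins genes that rose in either mutant beside an activated retrotransposon copy. A listed gene need not have risen in both. The study proposes that the copies drive these genes, without direct evidence of fusion transcripts. Some of the copies are absent from the MSM/Ms genome, as the study reports. In hybrids it found the activated alleles to be almost exclusively of the other strain. At such genes a rise may come from that allele alone, and alleles were not told apart here. The list has 39 genes. Of the 36 tested, 5 were higher (13.9%), namely Gc, Reg2, Pkhd1, Robo2 and Tmc2, and 2 were lower (5.56%). Over all genes tested 1.15% were higher and 7.18% lower. The median log2 change of the list was 1.02 against 0.06 over all genes. Robo2, a receptor of axon guidance, was at 0.0196 and 0.0313 FPKM in the controls and 0.263 and 0.973 in the mutants (adjusted p = 0.0133). Tmc2, a channel subunit of hair cells, was at 0 and 0.0244 FPKM in the controls and 0.812 and 0.565 in the mutants (adjusted p = 0.0262). Both mutants were above both controls for 18 of the 36 and below for 4, against 13.8% and 21.8% of all genes tested. Among those not called, Cdh19 was at 0 and 0.00861 FPKM in the controls and 0.333 and 0.409 in the mutants (adjusted p = 0.0725). Fmr1 was at 50.7 and 139 FPKM in the controls and 58.4 and 105 in the mutants (adjusted p = 0.841). The 2 lower genes were Capn11 and Plac8l1. Capn11, a calpain of the testis, went from 4.2 and 4.0 to 0.702 and 1.26 FPKM, and Plac8l1 from 13 and 6.48 to no fragment.

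Some immediate-early genes, which answer growth and stress signals within minutes, were among the called rises. They were chosen after their values were seen, so nothing is said of the group as a whole. Fosb was at 25.3 and 6.55 FPKM in the controls and 66.0 and 43.7 in the mutants (log2 change 2.01, adjusted p = 0.0121). Egr1 was at 53.5 and 23.6 FPKM in the controls and 126 and 105 in the mutants (log2 change 1.66, adjusted p = 0.0134). Jun, Atf3 and Nr4a1 rose by 1.53, 1.86 and 1.36 on the log2 scale (adjusted p = 0.021, 0.0177 and 0.0266). For each of these 5 both mutants were above both controls. Junb, Ier2 and Egr2, of the same kind, did not pass (adjusted p = 0.154, 0.0745 and 0.357). With limma on log2(FPKM + 1) Nr4a1 no longer passed.

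**Figure D4:**
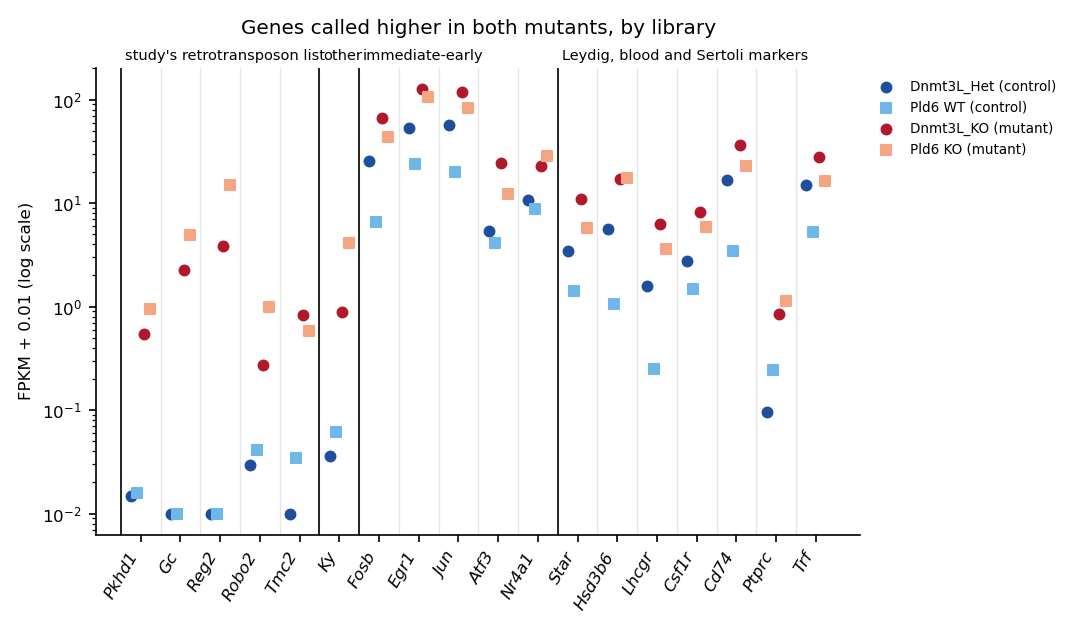
Levels of 18 genes called higher in the mutants, as FPKM + 0.01 on a log axis, with controls in blue, mutants in red, circles for the Dnmt3L line and squares for the Pld6 line. Gc and Reg2 have no fragment in either control. For immediate-early and somatic genes the mutants lie above the control of their line. Their log2 changes run from 0.91 (Trf, Dnmt3L line) to 3.67 (Hsd3b6, Pld6 line).

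The largest rises of well expressed genes by the naming rule were led by Reg2. Erdr1 (chromosome X, 170010526 to 170018797) was at 85.3 and 57.9 FPKM in the controls and 1261 and 207 in the mutants (log2 change 2.85, adjusted p = 0.0135). It lies in the pseudoautosomal region. Pla2g4b, a phospholipase gene that overlaps other genes, was at 0.0414 and 1.83 FPKM in the controls and 4.06 and 9.96 in the mutants. Orm1, a plasma glycoprotein, was at 1.82 and 0.391 FPKM in the controls and 14.0 and 4.07 in the mutants. The remaining ones were Lect1, F13a1, Hsd3b6 and Fosb, all called, and the non-coding RNA gene Rnu11 and Edn1, which were not (adjusted p = 0.308 and 0.0503). The rule admits only genes with both mutants above both controls. Rnu11 lacks a polyA tail, and its fragments numbered 0 and 2 in the controls against 14 and 8 in the mutants.

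Some transcripts of somatic testis cells and blood cells were also called. Of 55 such markers tested, 8 were higher, 2 lower and 45 not called, and the lists did not all move one way. Over all genes tested 1.15% were higher and 7.18% lower. The Sertoli list had a median log2 change of 0.81 with 1 of 14 called by edgeR (Trf, the transferrin gene, adjusted p = 0.0496). Higher at an unadjusted p under 0.05 were 8 of the 14, against 1592 of the 17686 genes tested. DESeq2 called 4, and 8 passed with libraries scaled on the early meiotic genes. Its summed level was 5881 FPKM in the Dnmt3L heterozygote and 7761 in the Dnmt3L KO, but 253 in the Pld6 WT and 605 in the Pld6 KO library. The Dnmt3L line thus held far more Sertoli transcripts than the Pld6 line in both genotypes. Clu, secreted by Sertoli cells, was at 2151 and 74.9 FPKM in the controls and 3202 and 190 in the mutants. Of the Sertoli markers only Trf did not overlap between the groups.

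Of 9 Leydig genes 3 were higher, namely Star, Hsd3b6 and Lhcgr. Star, the cholesterol carrier of steroid synthesis, was at 3.46 and 1.39 FPKM in the controls and 10.9 and 5.68 in the mutants (log2 change 1.79, adjusted p = 0.016). The summed level of the 9 was 387 and 28.6 FPKM in the controls and 406 and 250 in the mutants, so the sum moved in the Pld6 line and hardly in the Dnmt3L line. Insl3, a hormone of Leydig cells, was at 202 and 14.7 FPKM in the controls and 198 and 142 in the mutants.

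Of 10 macrophage genes 3 were higher (Csf1r, Lyz2 and Cd74), and the summed level was 90.3 and 27.4 FPKM in the controls and 175 and 84.7 in the mutants. Csf1r, the receptor that macrophages depend on, was at 2.72 and 1.47 FPKM in the controls and 8.12 and 5.88 in the mutants (log2 change 1.74, adjusted p = 0.0229). Of 6 lymphocyte genes Ptprc was higher, with a summed list level between 4.47 and 22.6 FPKM and with the defining markers Cd79b, Ly6d and Il7r among those at 0 in the Dnmt3L heterozygote. The T cell marker Cd3e was below both controls in both mutants, at 7.59 and 6.89 FPKM against 2.96 and 3.04, and did not pass (adjusted p = 0.141), and Cd3d was placed in the same way. None of 11 peritubular and vascular genes was called by edgeR or by DESeq2 (1 higher at an unadjusted p under 0.05), with summed levels of 612 and 146 FPKM in the controls and 327 and 619 in the mutants. Of 5 erythroid genes tested Hba-a2 and Hbb-b1 were lower. The globin genes are near-identical copies, and the fragments of Hba-a2 were not whole numbers. The sum was 848 and 35.5 FPKM in the controls and 179 and 19 in the mutants. Trf, Cd74, Ptprc and Hba-a2 did not pass with DESeq2's size factors, nor Star and Csf1r by limma, and the part of these cells in the called rises was not tested.

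Other responses that could accompany loss of silencing showed few calls. Of 23 imprinted genes tested 1 was higher (4.35%, against 1.15% of all genes tested). It was Peg10, at 20.5 and 3.95 FPKM in the controls and 53.5 and 7.53 in the mutants (log2 change 1.13, adjusted p = 0.0362). Its groups overlapped, since the Pld6 KO library was below the Dnmt3L heterozygote, and by limma it did not pass. None of 16 genes of the DNA damage and p53 response was called by edgeR, with a median of -0.22 (2 higher at an unadjusted p under 0.05, and 1 higher by DESeq2). Trp53 itself was at 28.7 and 18.4 FPKM in the controls and 50.6 and 34.6 in the mutants (adjusted p = 0.0894). None of 17 genes of nucleic acid sensing and the interferon response was called by edgeR, with a median of 0.90 (4 higher at an unadjusted p under 0.05, 1 higher by DESeq2, and 3 higher with libraries scaled on the early meiotic genes). The medians within the lines were 0.90 (Dnmt3L) and 0.23 (Pld6). Mb21d1, the DNA sensor cGAS, was at 0.280 and 0.905 FPKM in the controls and 1.33 and 1.78 in the mutants.

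Among 78 genes of cytosolic ribosomal proteins, 2 were called lower by edgeR, the testis copies Rpl39l and Rpl10l (7 lower at an unadjusted p under 0.05, and 4 by DESeq2). With libraries scaled on the early meiotic genes neither passed. Rpl39l was at 335 and 259 FPKM in the controls and 127 and 127 in the mutants (log2 change -1.25, adjusted p = 0.019), and Rpl10l, which stands in for an X-linked gene in meiosis, at 134 and 123 against 52.2 and 74.4 (log2 change -1.08, adjusted p = 0.0466). The median of the whole group was -0.41, and 0.23 with libraries scaled on the early meiotic genes. Both mutants were below both controls for 60 of the 78, these copies included, against 21.8% of all genes tested.

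**Figure D5:**
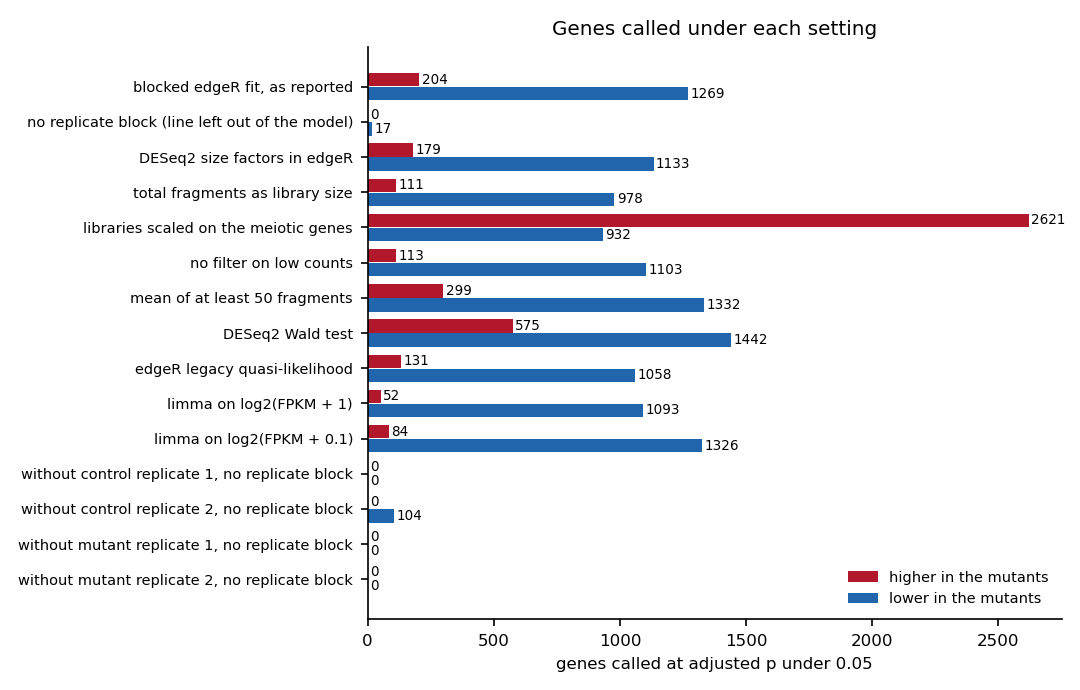
Number of genes called higher (red) and lower (blue) in the mutants at an adjusted p under 0.05 under each setting, with the reported fit on top. Fits with line as a block give 932 to 1442 lower genes, while the count of higher genes runs from 52 to 2621, and fits without the block give 0 higher and 0 to 104 lower genes.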

How the data were processed

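RNA of sorted L/Z spermatocytes was sequenced in 4 libraries, 2 mutant and 2 control. Reads of 50 bases were aligned with TopHat2 and quantified with Cuffdiff by the authors, on mm10 per the labels, with versions not given in the sources used here. The deposited table holds unscaled estimated counts of fragments for each gene, of which 97.28% to 97.45% were whole numbers. It also holds FPKM values, which the authors obtained from Cuffdiff and which account for length and depth. For 28 genes the tool marked 31 values as failed, and these were kept.

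Estimated counts were rounded and tested in R 4.3.3 with edgeR 4.0.16 (quasi-likelihood F test, TMM, filterByExpr by group, line as a block, Benjamini-Hochberg adjustment at 0.05). Pairing comes from the genotype labels, which give the line of each library. The common dispersion was 0.146 with line and 0.369 without. DESeq2 1.42.0 and limma 3.58.1 served as alternatives, the latter on FPKM with pseudocounts of 1 and 0.1. The blocked edgeR fit alone was run on simulated counts. There the change was the same in both lines, so errors where the lines respond differently cannot be seen from it. An exact permutation of 2 libraries against 2 cannot give a two-sided p below 0.333, so none was used. P-values measure only the spread between the lines, which differ in the gene lost and may differ in handling. In the edgeR fit that spread was estimated mostly over genes, with 6.45 prior degrees of freedom against 1 residual for the gene itself. A count of 0 was taken as at most 3 fragments, a floor that covers counting error only, since no molecular identifiers are given.

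Named genes are Pld6 and Dnmt3l, the 10 largest rises and falls among genes with separate groups and at least 5 FPKM in the higher group, up to 4 members per list (2 by p, 2 by size), and genes for which the lines differ most. Any other named gene was chosen after its values were seen. The comparison, the lists and the motifs were chosen with earlier results of these data known. RefSeq positions (GRCm38.p6) were found for 99.3% of the genes. Alternatives changed the block, the scaling, the filter, the tool, the pseudocount or the fold, or left out a library. Some genes are not reported here.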

Additional observations from a re-analysis of the deposited data

Results flagged for a closer look

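The lines moved in opposite directions for some gene lists and genes, which was seen from 1 mutant and 1 control per line and was not tested. The median change of the spermatogonial list was 0.18 in the Dnmt3L line and -0.15 in the Pld6 line, and that of the p53 list 0.02 and -0.27. Some lists of other cell types were higher in the Pld6 line and not in the Dnmt3L line. The Leydig list had a median of 2.95 there against -0.01 in the Dnmt3L line, the lymphocyte list 1.59 against -0.11, and the peritubular and vascular list 1.73 against -0.76.

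Of the 114 genes with opposite changes beyond 2-fold, the 10 named (at least 5 FPKM on average, 5 with the largest difference each way) are given, and 5 were lower in the Pld6 line. Gm15023 changed by -1.04 there and by 4.61 in the Dnmt3L line, Gm14692 by -3.74 and 1.58, Akr1b3 (an aldo-keto reductase) by -2.91 and 1.17, A730008H23Rik by -1.84 and 1.31, and Eno1 (a glycolytic enolase) by -1.17 and 1.08. The other 5 were higher in the Pld6 line and are known from connective tissue, muscle or vessels, apart from the kallikrein gene Klk1b24. Tm4sf1 changed by 1.55 in the Pld6 line and -2.93 in the Dnmt3L line, Klk1b24 by 2.62 and -1.26, Eln (elastin) by 2.49 and -1.11, Clec3b by 2.16 and -1.31, and Tagln (of smooth muscle) by 1.73 and -1.65. All changes are on the log2 scale, and the part of other cell types in them was not tested. At the 5 genes lower in the Pld6 line every count above 0 was fractional, while the counts of the other 5 were whole numbers. The part of read assignment between genes was not tested either.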

How the results depend on the processing

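The 204 higher and 1269 lower calls came from a model with line as a block. Without the block there were 0 higher and 17 lower genes by edgeR (178 and 1690 at an unadjusted p under 0.05), and leaving out 1 library, which leaves no degree of freedom for line, gave 0 higher and 0 to 104 lower genes. The 104 were called without the Pld6 WT library, and 0 without any of the other three (1090 to 1507 lower and 108 to 381 higher at an unadjusted p under 0.05). In these fits the lone library is assumed to vary like the pair. No setting with the block moved the count of lower genes beyond 1.5 times (932 to 1442).

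The count of higher genes was 111 with total fragments as library size, 2621 with libraries scaled on the early meiotic genes, 113 with no filter on low counts, 575 by DESeq2, 131 by edgeR's legacy method, and 52 and 84 by limma on log2(FPKM + 1) and log2(FPKM + 0.1). Of the 52 and 84, 35 and 55 were among the 204, as were 199 of the 575. More than 2-fold higher in each line were 2113 genes under the meiotic scaling, 584 and 233 with pseudocounts of 0.1 and 1 CPM, and 40 and 1384 beyond 3-fold and 1.5-fold, the last with 2271 lower. The meiotic scaling turned 4 medians, to 0.028 (break formation), 0.307 (piRNA pathway), 0.582 (cyclins) and 0.228 (ribosomal proteins), and it moved the median of all genes to 0.693. The break formation genes are among those that set this scaling, so their median near no change is built in.

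Leaving out a library also took line out of the model, so differences in level between the lines enter these changes. It turned the change of Peg10 to -0.738 (without the Dnmt3L KO) and of Hbb-b1 to 1.428 (without the Dnmt3L heterozygote). It also turned medians, namely of break formation to 0.113, of cyclins to 0.257 and of Sertoli cells to -0.637 without the Pld6 WT, of interferon response to -0.433, of cyclins to 0.264 and of Sertoli cells to -2.475 without the Dnmt3L KO, of DNA methylation to -0.071 and of erythroid cells to 1.48 without the Dnmt3L heterozygote, and of DNA methylation to -0.099 without the Pld6 KO. The 91 named genes include many that the reported fit did not call. The call was lost for 62 of them without the block, where only Adam3, Ldhc and Tdrd6 of the 91 kept it. It was lost for 17 by limma on log2(FPKM + 1), for 7 by limma on log2(FPKM + 0.1) and for 6 by DESeq2. Under the other scalings, the legacy method and no filter it was lost for 5 to 12. The causes were not tested. Depth limits the genes at 0 to the bounds given.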

Other observations

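Among the 17 genes that stayed lower by edgeR with line left out were Adam3, Adam5, Ldhc, Crisp2, Spata16, Tdrd6, Tekt3, Hrasls5, Gykl1 and Atp8b3. They include surface proteins of sperm (Adam3 and Adam5), a tektin of the flagellum (Tekt3) and germ cell forms of metabolic enzymes (Ldhc and Gykl1). The log2 changes of the 17 in that fit ranged from -11.08 (Hrasls5) to -6.16 (Atp8b3), with adjusted p between 0.0385 and 0.0469. None belongs to the spermatid packaging list, whose levels differed most between the controls.

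The median change of the 800 tested genes on chromosome X was 0.20 in the fit, where autosomes reached at most 0.12. Within the lines it did not stand out, at 0.16 in the Dnmt3L line, where chromosome 18 was at 0.18, and at 0.00 in the Pld6 line, where chromosomes 7 and 19 were at 0.02. The difference was not tested.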
